A study of Homo sapiens with 6 samples.

Results

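The core autophagy machinery was taken as 44 genes named by symbol, and all 44 were found once each among the 60664 genes of the count table. They were grouped by the step at which their proteins act: 5 in initiation, 8 in the class III phosphatidylinositol 3-kinase (PI3-kinase) complexes, 9 in lipid transfer and membrane growth, 10 in the conjugation systems, 6 ATG8 proteins and 6 in fusion with the lysosome. Receptors that pick up cargo were not included. The libraries came from PC9OR, by its name a derivative of PC9, a human lung adenocarcinoma line with an activating EGFR deletion. The 3 NC libraries carry the genotype label Control, and the 3 si-GLMP libraries come from cells with GLMP knocked down. The label si-GLMP names small interfering RNA, while the number of siRNA sequences, the time after transfection and any drug in the medium could not be read from the labels used here. GLMP encodes a membrane protein of the lysosome, and the series title ties it to autophagy and to resistance against EGFR inhibitors.

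Autophagy encloses cytoplasm in a double membrane, the autophagosome, which then fuses with the lysosome. The ULK kinase complex starts the process, a PI3-kinase complex marks the site with a lipid, ATG2 and ATG9 proteins feed the growing membrane, and a pair of ubiquitin-like systems attach ATG8 proteins (the LC3 and GABARAP families) to it. SNARE proteins carry out the fusion. Much of the control of these proteins acts by phosphorylation, lipidation and turnover, which RNA counts do not measure.

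Library totals lay between 19896875 and 22372878 counts, and a count of 3, taken as the floor of detection, stood for 0.134 to 0.151 CPM, the count scaled to library size. GLMP was measured at 15.5, 16.8 and 15.4 CPM in NC against 4.01, 2.88 and 3.15 CPM in si-GLMP, a log2 fold change of -2.25 ± 0.14 (adjusted p = 1.16e-18, edgeR), so the target was low in each si-GLMP library. The opposite-strand gene TMEM79, which covers 17.5% of GLMP exonic sequence, rose by 0.49 (adjusted p = 9.95e-05, edgeR). The epithelial markers EPCAM, KRT7, KRT8, KRT18, KRT19 and CDH1 summed to between 9109 and 9384 CPM in NC and between 8304 and 9294 CPM in si-GLMP. The lung lineage markers NKX2-1, NAPSA, SFTPB and SFTPC together summed to between 0.343 and 0.775 CPM, near the floor of detection. Leukocyte markers summed to 1.21 to 2.35 CPM over all libraries, endothelial markers to 4.82 to 7.68 CPM, and fibroblast markers to 5.99 to 7.48 CPM in NC and 10.5 to 12.4 CPM in si-GLMP. In the fibroblast list COL1A1 passed the test, and DCN and LUM were at or near 0. The 13 mitochondrially encoded mRNAs took 6.49% to 8.73% of counts in NC, with NC replicate 2 highest, and 5.18% to 5.49% in si-GLMP; the part of any of these in the results below was not tested.

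The machinery changed in small steps and in both directions, with more members higher than lower after GLMP knockdown. Of the 44 members 42 had enough reads to be tested, and 11 of them rose and 3 fell after knockdown at a Benjamini-Hochberg adjusted p under 0.05 (edgeR quasi-likelihood test, adjusted over all 15900 tested genes). Of all tested genes, 23.3% passed in either direction, 12% as higher and 11.3% as lower. In this setting the 14 called members, 33.3% of those tested, stood somewhat above the background and the 3 lower ones below it. The excess was not kept in every setting. Without NC replicate 3, 6 of 42 tested members were higher and 1 lower, against 1577 higher and 1435 lower of 16243 tested genes. The median log2 fold change of the tested members was 0.07, against 0.0036 over all tested genes. The median size of change, without its sign, was 0.18 in the members and 0.18 over all tested genes. By this median the members moved no further than the tested genes as a whole. The tested genes were not matched to the members for read level, which can affect both the share called and the size of change. Their log2 fold changes ran from -0.38 (GABARAPL1) to 0.47 (WIPI1). Groups without overlap in CPM were seen for 22 of the 42 members, 17 with si-GLMP higher and 5 with it lower, where 36.5% of all tested genes showed this, 18.5% with si-GLMP higher and 17.9% with it lower. In RNA from whole cultures, fewer expressing cells and less RNA per cell cannot be told apart. The 3 replicates are not stated to be separate cultures, so a p-value here speaks only to the spread among these 6 libraries, which can be technical. Log2 fold changes are si-GLMP minus NC and are given ± their standard error, and gene positions are from GENCODE 29 on GRCh38.

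**Figure D1:**
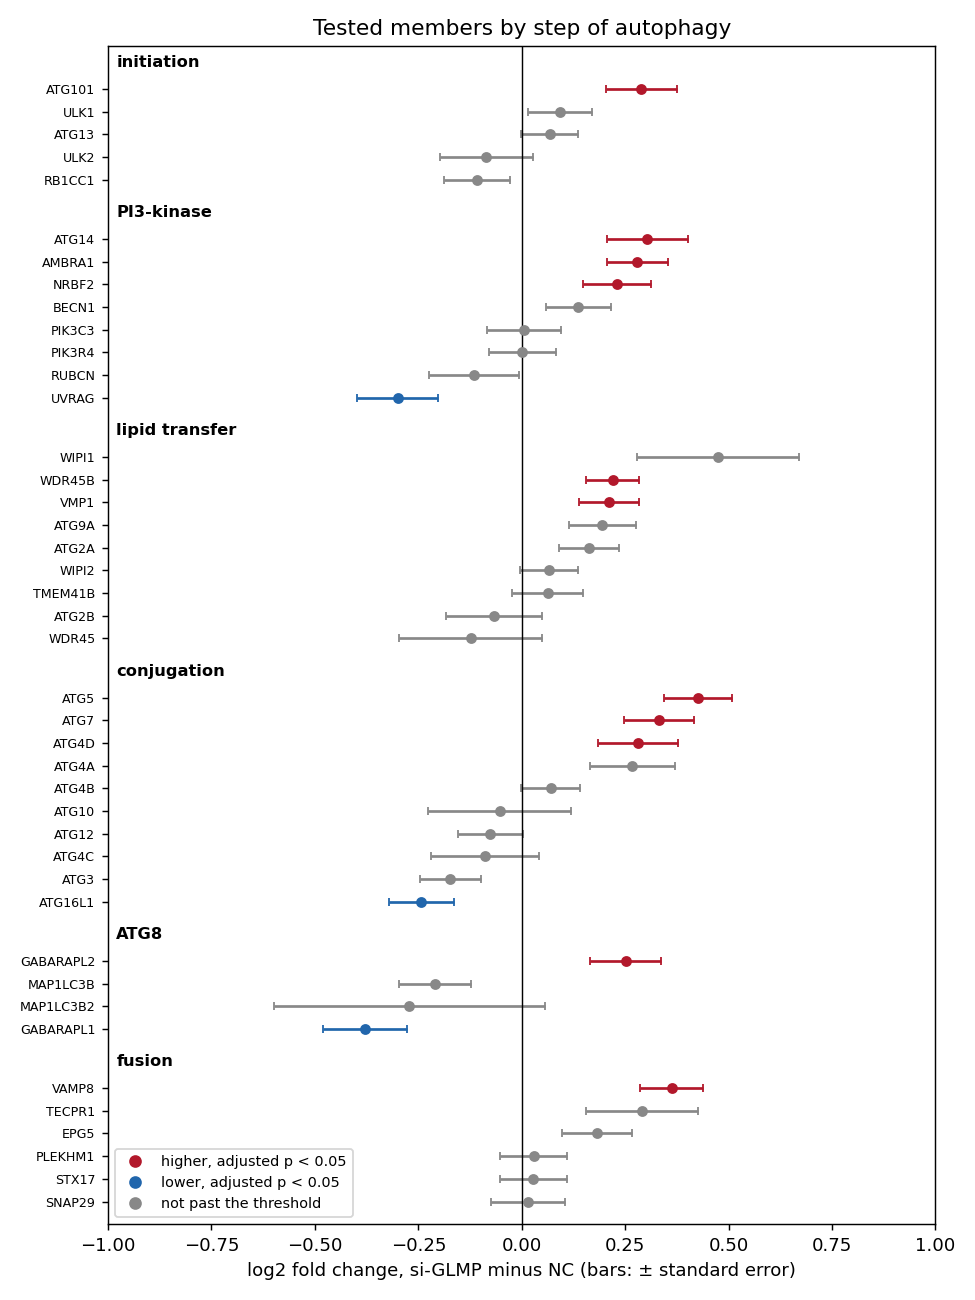
Log2 fold change of si-GLMP minus NC (x axis, bars are standard errors) for the 42 tested members, grouped by step and ordered by size within each step. Red points are the 11 members called higher, blue points the 3 called lower and grey points the 28 not past the threshold; every step holds at least 1 red point and all values lie between -0.38 and 0.47.

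Summed over members, the 44 genes were higher in every si-GLMP library than in every NC library. Their sum was 1674, 1668 and 1652 CPM in NC against 1793, 1792 and 1779 CPM in si-GLMP, a difference of 7.39% between the group means. They took 0.161% to 0.168% of all counts in NC and 0.179% to 0.181% in si-GLMP, and with the mitochondrially encoded mRNAs left out of the total 0.176% to 0.179% and 0.189% to 0.191%. By step the mean difference was 11.9% for lipid transfer, 10.9% for fusion, 8.13% for the PI3-kinase complexes, 4.72% for initiation and 3.95% for conjugation. The ATG8 step went the other way, by -4.28%, with libraries of the groups overlapping. Its sum rests on the GABARAP counts as deposited, which lay near the floor of detection, and the cause of that low count was not tested. The initiation sums overlapped too, since si-GLMP replicate 2 (272 CPM) lay below NC replicate 2 (276 CPM). These sums weigh abundant members most and carry no test.

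**Figure D2:**
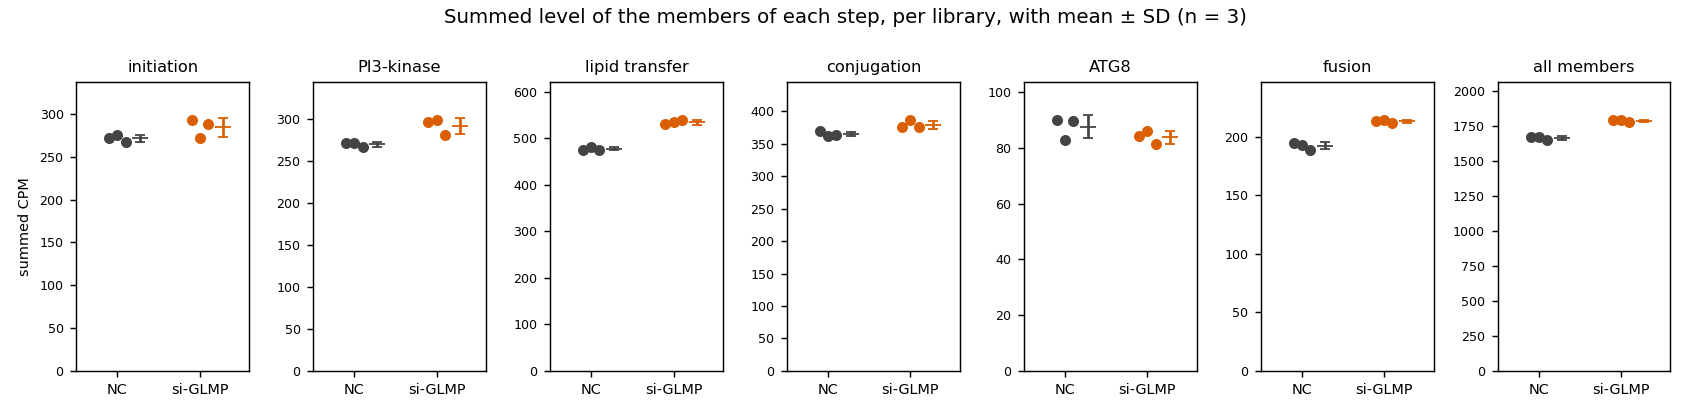
Summed TMM-scaled CPM of the members of each step and of all 44 members (y axis, each panel with its own scale from 0) in the 3 NC and 3 si-GLMP libraries; points are libraries and the bars beside them mean ± SD. The groups separate for lipid transfer, fusion, PI3-kinase, conjugation and the total, and overlap for initiation and ATG8.

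In the initiation complex 1 of 5 members passed, ATG101, and the kinases themselves did not. ATG101, the subunit that stabilises ATG13 in the complex (ENSG00000123395; chromosome 12, 52069246 to 52077494, plus strand), was measured at 31.8, 34.9 and 34.5 CPM in NC replicates 1 to 3 and 45.2, 36.5 and 42.1 CPM in si-GLMP replicates 1 to 3. Each si-GLMP library lay above each NC library, with si-GLMP replicate 2 closest to the controls, and ATG101 rose with a log2 fold change of 0.29 ± 0.09 (adjusted p = 0.00972, edgeR). The call was lost when NC replicate 1 (adjusted p = 0.079 by edgeR), si-GLMP replicate 1 (0.0842) or si-GLMP replicate 3 (0.0506) was left out. ATG101 shares 19.2% of its exonic length with AC025259.1 on the opposite strand, which held 0 or 1 reads per library. ULK1, the kinase that starts autophagosome formation, was at 59.5, 50.8 and 57.0 CPM in NC against 61.8, 57.7 and 59.0 CPM in si-GLMP. These values overlapped, and its log2 fold change of 0.09 ± 0.08 (adjusted p = 0.43, edgeR) had a 95% interval of -0.06 to 0.25. The related kinase gene ULK2 (-0.09), the scaffold genes ATG13 (0.07) and RB1CC1 (-0.11, encoding FIP200) did not pass, with adjusted p (edgeR) between 0.36 and 0.649 for these 3 genes.

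The PI3-kinase complexes showed opposite changes in the subunits that set them apart. Of 8 members 3 rose, 1 fell and 4 did not pass. ATG14 directs the kinase to the autophagosome and UVRAG belongs to the alternative complex of endosomes; both proteins bind the same core and exclude each other. ATG14 (ENSG00000126775; chromosome 14, 55366392 to 55411858, minus strand) had 18.1, 18.4 and 19.6 CPM in NC replicates 1 to 3 and 22.6, 24.9 and 21.8 CPM in si-GLMP replicates 1 to 3. All si-GLMP values lay above all NC values, and ATG14 rose with a log2 fold change of 0.30 ± 0.10 (adjusted p = 0.0181, edgeR). UVRAG (ENSG00000198382; chromosome 11, 75815167 to 76143195, plus strand) had 22.4, 22.6 and 25.9 CPM in NC against 18.5, 20.04 and 19.0 CPM in si-GLMP, all si-GLMP values lying below all NC values, and fell by 0.30 ± 0.10 on the log2 scale (adjusted p = 0.0191, edgeR). Within a library the ratio of ATG14 to UVRAG reads, which does not depend on how libraries are scaled, was 0.807, 0.814 and 0.758 in NC and 1.22, 1.24 and 1.14 in si-GLMP. The ratio was higher in each si-GLMP library than in each NC library. Reads are not scaled to gene length, so a ratio of 1 does not mark equal levels. Scaled to union exon length and library size (TPM), ATG14 lay above UVRAG in NC replicates 1 (12.6 against 12.4) and 2 (11.7 against 11.5). In NC replicate 3 it lay below (13.7 against 14.4). The pair was chosen after its values were seen, so no test is given. Both genes had groups without overlap, in opposite directions, so the separation of their ratios follows from that. The ATG14 call was lost when NC replicate 1 (adjusted p = 0.0852 by edgeR) or si-GLMP replicate 2 (0.0783) was left out. The UVRAG call was lost when NC replicate 3 (adjusted p = 0.184 by edgeR), si-GLMP replicate 1 (0.0582) or si-GLMP replicate 3 (0.0775) was left out.

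AMBRA1, a scaffold that binds Beclin 1 and supports ULK1 (ENSG00000110497; chromosome 11, 46396414 to 46594125, minus strand), had 58.6, 57.4 and 59.3 CPM in NC against 75.5, 69.7 and 67.6 CPM in si-GLMP. It rose in every si-GLMP library, with a log2 fold change of 0.28 ± 0.07 (adjusted p = 0.00337, edgeR), and kept its call in all 14 alternative settings. NRBF2, a further subunit of the ATG14 complex (ENSG00000148572; chromosome 10, 63133247 to 63155031, plus strand), had 38.8, 38.6 and 37.01 CPM in NC against 46.0, 46.8 and 41.3 CPM in si-GLMP and rose with a log2 fold change of 0.23 ± 0.08 (adjusted p = 0.0318, edgeR). Its groups did not overlap, yet the call was lost when NC replicate 1 (adjusted p = 0.0783 by edgeR), NC replicate 3 (0.134), si-GLMP replicate 1 (0.0846) or si-GLMP replicate 2 (0.0806) was left out and with no filter on low counts (0.0553). BECN1, the Beclin 1 gene common to both complexes, was measured at 41.8, 42.7 and 42.3 CPM in NC against 47.5, 47.2 and 44.7 CPM in si-GLMP. Its si-GLMP values were all above its NC values by a small margin, and its log2 fold change of 0.14 ± 0.08 (adjusted p = 0.222, edgeR) did not pass, with a 95% interval of -0.02 to 0.29. BECN1 passed after removal of the GC and length trend (adjusted p = 0.0484 by edgeR). BECN1 shares 17.1% of its exonic length with CNTD1 and PSME3 on the opposite strand. PSME3 had a mean of 232 CPM in NC and a log2 fold change of -0.07 (adjusted p = 0.485, edgeR). The strand setting of the counting is not given, so reads in the shared stretch cannot be told apart. The catalytic subunit gene PIK3C3 (VPS34) and the regulatory subunit gene PIK3R4 (VPS15) had log2 fold changes of 0.0055 and 0.0015, with 95% intervals of -0.17 to 0.18 and -0.16 to 0.16. RUBCN, which encodes the inhibitor Rubicon, had -0.11 (adjusted p = 0.502, edgeR).

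The promoter windows of the members from RefSeq (GRCh38.p14, 300 bases around a gene's start, most of them upstream) were searched on both strands for CACGTG, the E-box. The E-box is the core of the element bound by TFEB and related factors at lysosomal genes. Windows were found for 37 of the 44 members, in 42 promoters, and not for RB1CC1, UVRAG, WDR45B, ATG4D, MAP1LC3A, STX17 and EPG5. The E-box was present in 4 of these 42, those of ATG14, NRBF2, ATG3 and SNAP29, or 9.52%, against 7.26% of all 35116 promoters. The longer palindrome TCACGTGA, which contains the E-box, was present in 2 of the 42, those of NRBF2 and ATG3, against 0.98% of all. In ATG3 it lies after the gene's start, outside the stretch printed, whose marked E-box is a separate site. The stretches are shown with the E-box in capitals, 5′ to 3′ on the strand of the gene, so that the called and the other genes can be compared. Of the 4 genes ATG14 and NRBF2 rose, while ATG3 (-0.17, adjusted p = 0.087, edgeR) and SNAP29 (0.01, adjusted p = 0.933, edgeR) did not pass. The other higher members with a window, among them AMBRA1, ATG5, ATG7 and VAMP8, held no E-box in it. A match describes letters and not binding.
ATG14, chr14:55411831-55411888 on the minus strand: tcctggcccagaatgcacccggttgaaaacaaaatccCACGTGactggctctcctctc
NRBF2, chr10:63133078-63133124 on the plus strand: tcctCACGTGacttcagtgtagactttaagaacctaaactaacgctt
ATG3, chr3:112561963-112562017 on the minus strand: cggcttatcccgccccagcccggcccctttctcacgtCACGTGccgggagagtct
SNAP29, chr22:20858786-20858865 on the plus strand: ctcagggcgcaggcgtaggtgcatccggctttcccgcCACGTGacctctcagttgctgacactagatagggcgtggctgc

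In the lipid transfer step 2 of 9 members rose and 7 did not pass. WDR45B, one of the PROPPINs that read the PI3-kinase lipid (ENSG00000141580; chromosome 17, 82614562 to 82648553, minus strand), had 148, 149 and 145 CPM in NC replicates 1 to 3 and 169, 170.3 and 176 CPM in si-GLMP replicates 1 to 3. The groups lay well apart, with SDs of 2.36 and 3.44 CPM (n = 3 each), and WDR45B rose with a log2 fold change of 0.22 ± 0.06 (adjusted p = 0.00896, edgeR). Its call was lost when NC replicate 3 (adjusted p = 0.0591 by edgeR) was left out. VMP1, an endoplasmic reticulum scramblase needed for membrane growth (ENSG00000062716; chromosome 17, 59707192 to 59842255, plus strand), had 76.0, 77.6 and 79.7 CPM in NC against 89.2, 98.4 and 82.6 CPM in si-GLMP. It rose with a log2 fold change of 0.21 ± 0.07 (adjusted p = 0.0262, edgeR), with si-GLMP replicate 2 the highest library, and the call was lost when NC replicate 1 (adjusted p = 0.118 by edgeR), NC replicate 2 (0.0516), NC replicate 3 (0.0528) or si-GLMP replicate 2 (0.131) was left out. VMP1 overlaps the microRNA gene MIR21 on the same strand over 1.04% of its exonic length.

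ATG9A, the scramblase of the vesicles that seed the autophagosome, was measured at 40.7, 44.2 and 41.5 CPM in NC against 46.3, 46.1 and 52.2 CPM in si-GLMP. All si-GLMP values were above all NC values, but its log2 fold change of 0.19 ± 0.08 (adjusted p = 0.0724, edgeR) missed the threshold. ATG9A passed when si-GLMP replicate 2 (adjusted p = 0.0413 by edgeR) was left out and after removal of the GC and length trend (0.0373). ATG9A shares 38.8% of its exonic length with AC068946.2 on the same strand, which held 0 to 2 reads per library. ATG2A, the lipid transfer protein that works with ATG9A, had 0.16 (adjusted p = 0.0986, edgeR) and also had groups that did not overlap. It passed when si-GLMP replicate 2 (adjusted p = 0.019 by edgeR) was left out and after removal of the GC and length trend (0.00494). Its relative ATG2B had -0.07, and per exonic length ATG2A held 90.4% ± 0.910 of the ATG2 level in NC. WIPI1 had the largest positive log2 fold change of all members, 0.47 ± 0.20 (adjusted p = 0.0712, edgeR), on a low level of 2.90 ± 0.204 CPM (mean ± SD) in NC against 4.02 ± 0.862 CPM in si-GLMP (SD, n = 3 each). Its groups overlapped, because si-GLMP replicate 3 (3.10 CPM) lay below NC replicate 2 (3.13 CPM), and it passed when si-GLMP replicate 3 (adjusted p = 0.027 by edgeR) was left out. WIPI1 shares 28.1% of its exonic length with genes on the opposite strand. WIPI2, which recruits ATG16L1, had 0.07, WDR45 had -0.12 and the scramblase gene TMEM41B had 0.06, with adjusted p (edgeR) between 0.556 and 0.67.

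The conjugation systems held the largest change past the threshold. Of 10 members 3 rose, 1 fell and 6 did not pass. ATG5, which is joined to ATG12 to form the enzyme that places ATG8 proteins on the membrane (ENSG00000057663; chromosome 6, 106045423 to 106325791, minus strand), had 40.9, 42.1 and 39.9 CPM in NC replicates 1 to 3 and 50.7, 62.5 and 52.0 CPM in si-GLMP replicates 1 to 3. Each si-GLMP library exceeded each NC library, si-GLMP replicate 2 by the most, and ATG5 rose by 0.43 ± 0.08 (adjusted p = 5.94e-05, edgeR) on the log2 scale, or 34.5%. ATG16L1 binds the ATG12-ATG5 pair and brings it to the membrane, and it moved the opposite way. ATG16L1 (ENSG00000085978; chromosome 2, 233210051 to 233295674, plus strand) had 55.6, 50.5 and 50.4 CPM in NC against 45.5, 41.7 and 45.0 CPM in si-GLMP and fell by 0.24 ± 0.08 on the log2 scale (adjusted p = 0.0192, edgeR), with no overlap between groups. The ratio of ATG5 to ATG16L1 reads within a library was 0.736, 0.834 and 0.791 in NC and 1.11, 1.5 and 1.16 in si-GLMP, higher in each si-GLMP library than in each NC library. The pair was chosen after its values were seen and was not tested. The separation of the ratios follows from genes whose groups lay apart in opposite directions. The ATG5 call held in all 14 alternative settings, whereas that of ATG16L1 was lost when NC replicate 1 (adjusted p = 0.181 by edgeR), si-GLMP replicate 2 (0.0595) or si-GLMP replicate 3 (0.0554) was left out.

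ATG7, the enzyme that activates both ubiquitin-like systems (ENSG00000197548; chromosome 3, 11272309 to 11557665, plus strand), had 30.7, 28.9 and 34.1 CPM in NC against 40.5, 39.1 and 38.4 CPM in si-GLMP. All si-GLMP libraries lay above all NC libraries, and ATG7 rose with a log2 fold change of 0.33 ± 0.09 (adjusted p = 0.00243, edgeR), a call kept in all 14 alternative settings. ATG7 shares 18.1% of its exonic length with VGLL4 on the opposite strand, and VGLL4 rose by 0.33 (adjusted p = 0.00235, edgeR). Since the strand setting of the counting is not given, reads of ATG7 and VGLL4 in the shared stretch cannot be told apart. ATG4D, one of 4 proteases that trim and release ATG8 proteins (ENSG00000130734; chromosome 19, 10543895 to 10553418, plus strand), had 20.3, 18.1 and 19.4 CPM in NC against 24.5, 23.1 and 22.8 CPM in si-GLMP and rose with a log2 fold change of 0.28 ± 0.10 (adjusted p = 0.027, edgeR). Its call was lost when NC replicate 2 (adjusted p = 0.107 by edgeR), NC replicate 3 (0.0734) or si-GLMP replicate 1 (0.0852) was left out. ATG4D shares 15% of its exonic length with KRI1 on the opposite strand. KRI1 had a mean of 59.6 CPM in NC and a log2 fold change of -0.06 (adjusted p = 0.665, edgeR). ATG4A just missed the threshold, with 17.7, 16.3 and 16.1 CPM in NC against 19.3, 22.2 and 18.8 CPM in si-GLMP and a log2 fold change of 0.27 ± 0.10 (adjusted p = 0.0519, edgeR). It passed with upper-quartile scaling (adjusted p = 0.0442 by edgeR), with the filter of 1 CPM in 3 libraries (0.0477), with the replicate block (0.0432) and after removal of the GC and length trend (0.0377). The protease genes ATG4B (0.07) and ATG4C (-0.09) did not pass. ATG3, which hands ATG8 proteins to the lipid, had -0.17 (adjusted p = 0.087, edgeR) with si-GLMP values all below NC values, and passed when si-GLMP replicate 2 (adjusted p = 0.021 by edgeR) was left out and after removal of the GC and length trend (0.0127). ATG10 (-0.05) and ATG12 (-0.08), the enzyme and the modifier of the ATG12 branch, did not pass (adjusted p, edgeR, of 0.872 and 0.551). ATG10, at a mean of 5.17 CPM in NC, shares 6.86% of its exonic length with RPS23 on the opposite strand, at 80.4 CPM.

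**Figure D3:**
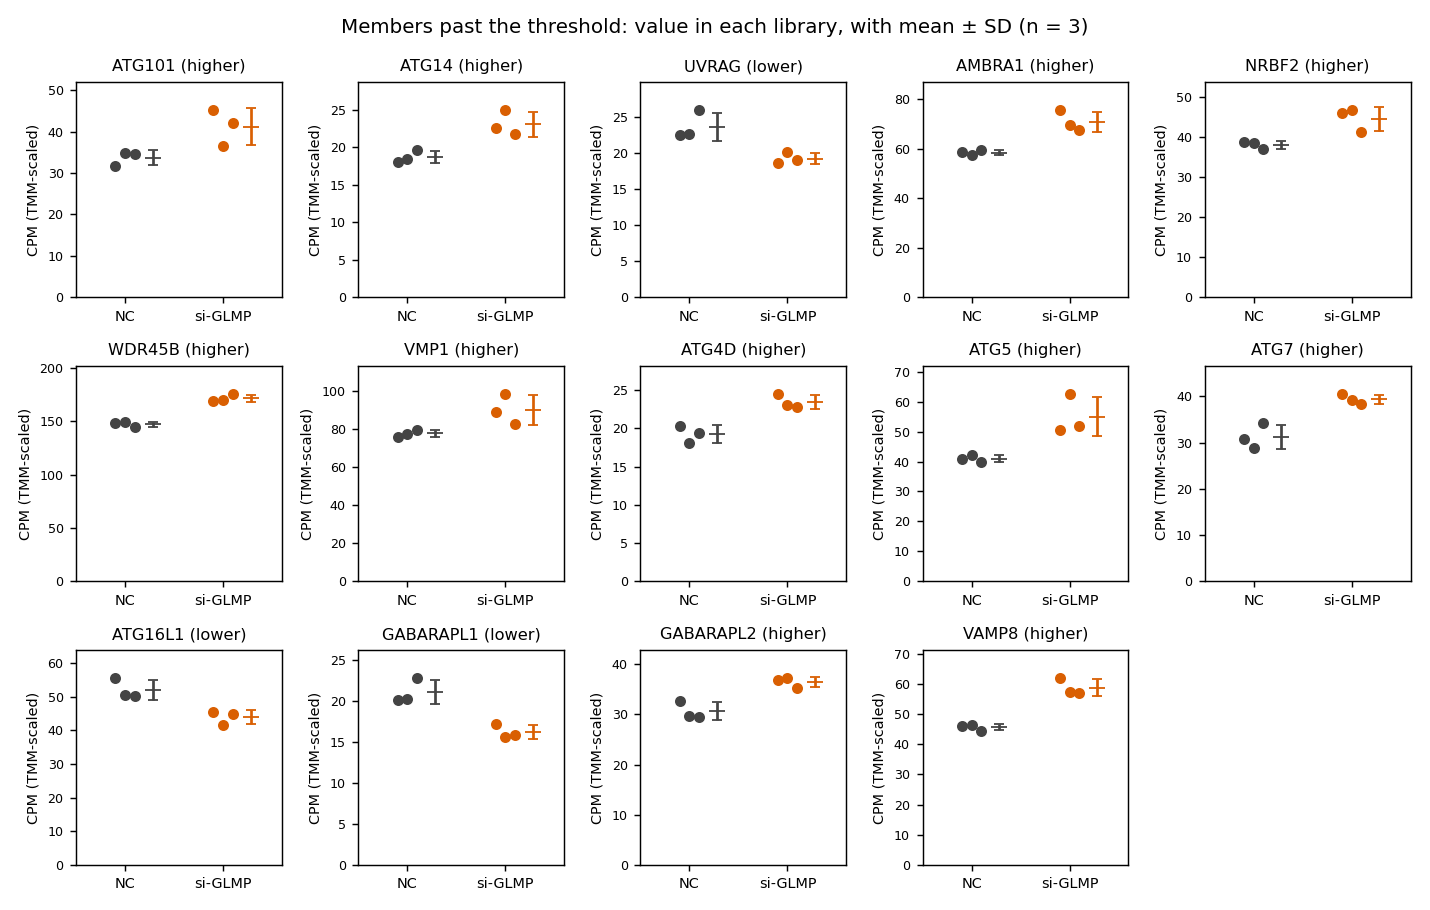
TMM-scaled CPM (y axis from 0, each panel with its own scale) in each library for the 14 members past the threshold; points are the 3 NC and 3 si-GLMP libraries in replicate order and the bars beside them mean ± SD. In each of the 14 panels the groups do not overlap, with UVRAG, ATG16L1 and GABARAPL1 lower and the other 11 genes higher in si-GLMP.

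The ATG8 genes split within the GABARAP family. Of 6 members 4 could be tested, and 1 rose, 1 fell and 2 did not pass. GABARAPL2, also named GATE-16 (ENSG00000034713; chromosome 16, 75566351 to 75577881, plus strand), had 32.6, 29.8 and 29.5 CPM in NC replicates 1 to 3 and 36.8, 37.2 and 35.3 CPM in si-GLMP replicates 1 to 3. Its groups did not overlap and it rose with a log2 fold change of 0.25 ± 0.08 (adjusted p = 0.0242, edgeR). GABARAPL1 (ENSG00000139112; chromosome 12, 10212458 to 10223130, plus strand) had 20.1, 20.3 and 22.8 CPM in NC against 17.2, 15.7 and 15.8 CPM in si-GLMP. All si-GLMP values were below all NC values, and GABARAPL1 fell by 0.38 ± 0.10 on the log2 scale (adjusted p = 0.00411, edgeR), the largest fall of any member. The ratio of GABARAPL2 to GABARAPL1 reads within a library was 1.62, 1.47 and 1.29 in NC and 2.14, 2.38 and 2.23 in si-GLMP, so each si-GLMP library had a higher ratio than each NC library. This pair too was chosen after its values were seen and was not tested, and the separation of its ratios again follows from the separate genes. The GABARAPL2 call was lost when NC replicate 2 (adjusted p = 0.0719 by edgeR) or NC replicate 3 (0.122) was left out, and the GABARAPL1 call was lost when NC replicate 3 (adjusted p = 0.0578 by edgeR) was left out.

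MAP1LC3B encodes LC3B, the protein most used to follow autophagosomes (ENSG00000140941; chromosome 16, 87383995 to 87404779, plus strand). It had 35.8, 31.5 and 36.1 CPM in NC replicates 1 to 3 and 28.7, 31.6 and 29.1 CPM in si-GLMP replicates 1 to 3. NC replicate 2 lay just below si-GLMP replicate 2, so the groups overlapped, and the log2 fold change of -0.21 ± 0.09 (adjusted p = 0.0755, edgeR) did not pass, although its unadjusted 95% interval was -0.38 to -0.03. It passed when NC replicate 2 (adjusted p = 0.0324 by edgeR) or si-GLMP replicate 2 (0.0403) was left out and after removal of the GC and length trend (0.0311). MAP1LC3B2 (ENSG00000258102; chromosome 12, 116548105 to 116576448, plus strand) had 1.21, 1.22 and 1.06 CPM in NC against 0.929, 1.23 and 0.727 CPM in si-GLMP and a log2 fold change of -0.27 ± 0.33 (adjusted p = 0.612, edgeR). In the GENCODE transcripts the coding sequences of these genes differ at 2 of 375 bases, and their longest identical run is 307 bases, so a short read from most of the coding part can belong to either. The first 60 coding bases, with the 1 base that differs in this stretch in capitals, show how close the copies are.
MAP1LC3B: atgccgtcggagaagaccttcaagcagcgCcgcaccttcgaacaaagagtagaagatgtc
MAP1LC3B2: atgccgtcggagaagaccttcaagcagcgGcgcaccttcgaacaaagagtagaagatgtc

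Of all 100-base stretches of the MAP1LC3B2 transcripts 12.3% occur unchanged in a MAP1LC3B transcript, and 3.7% the other way round, so the value of the low MAP1LC3B2 is the more uncertain of the pair. A 100-base stretch was not shared between any other pair of the 6 ATG8 genes. MAP1LC3A, the LC3A gene, had 1, 1 and 0 reads in NC and 7, 1 and 1 reads in si-GLMP, at or under the floor of 3 reads except in si-GLMP replicate 1. GABARAP itself had 3, 1 and 6 reads in NC and 5, 2 and 5 reads in si-GLMP, which is near that floor in every library. In GENCODE 29, 30.5% of the exonic length of GABARAP overlaps another gene on the same strand, which held 0 reads in each library, and 25.2% overlaps a gene on the opposite strand, which held 4 to 11 reads. The sources used here do not give the annotation used for counting, so whether reads of GABARAP were set aside as ambiguous was not tested.

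Levels were divided by union exon length, which counts every annotated exon, expressed or not, so comparisons between genes depend on the annotation. By mean CPM, MAP1LC3B lay above GABARAPL2 in NC (34.5 against 30.6) and below it in si-GLMP (29.8 against 36.4). Per exonic length GABARAPL2 led the counted ATG8 genes. In NC its level was 34.6 ± 3.09 TPM (TPM, the count scaled to union exon length and library size; SD, n = 3), followed by MAP1LC3B at 22.3 ± 2.75 TPM, GABARAPL1 at 17.7 ± 1.88 TPM and MAP1LC3B2 at 2.25 ± 0.134 TPM. The 3 NC libraries kept this order without overlap between GABARAPL2 and MAP1LC3B, whereas MAP1LC3B (lowest 19.1 TPM) and GABARAPL1 (highest 19.7 TPM) overlapped. Of the summed ATG8 level per length, GABARAPL2 took 44.9% ± 2.01 in NC and 53.8% ± 0.139 in si-GLMP (SD, n = 3 each). MAP1LC3B took 28.8% ± 1.10 in NC and 25.2% ± 1.08 in si-GLMP, and GABARAPL1 took 23.0% ± 1.62 in NC and 17.8% ± 0.944 in si-GLMP. The shares rest on the GABARAP counts as deposited.

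**Figure D4:**
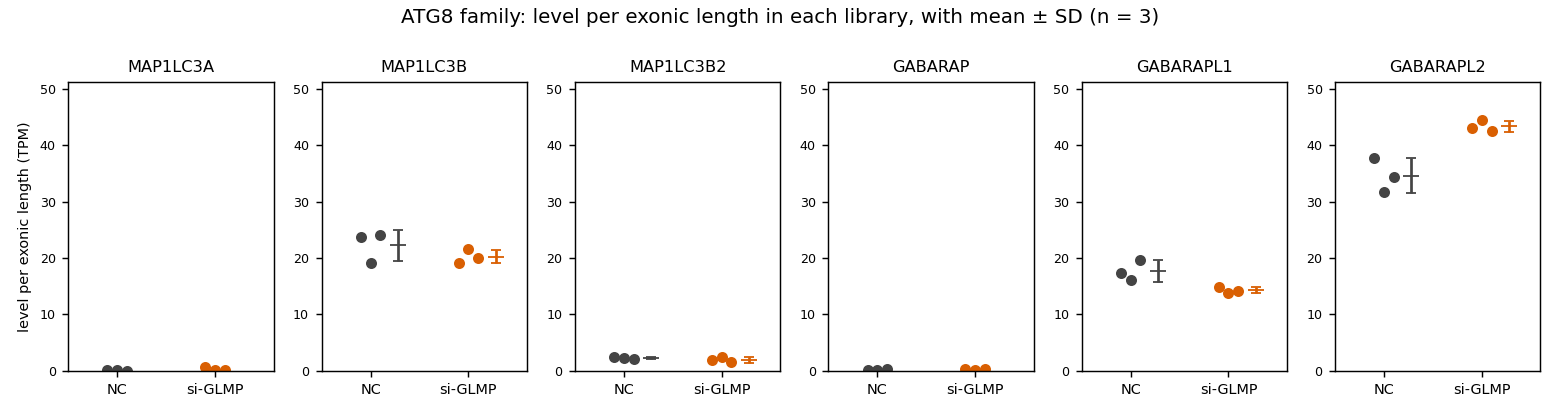
Level per exonic length (TPM, y axis shared by all panels) of the 6 ATG8 genes in the 3 NC and 3 si-GLMP libraries; points are libraries, and bars are mean ± SD except for MAP1LC3A and GABARAP, which were near the floor and have points only. GABARAPL2 is highest in each group and lies higher in si-GLMP, GABARAPL1 lies lower in si-GLMP, and MAP1LC3B overlaps between groups.

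In the fusion step 1 of 6 members rose and 5 did not pass. VAMP8, the SNARE on the lysosome side (ENSG00000118640; chromosome 2, 85561562 to 85582031, plus strand), had 46.2, 46.3 and 44.6 CPM in NC replicates 1 to 3 and 62.0, 57.3 and 57.0 CPM in si-GLMP replicates 1 to 3. Each si-GLMP library lay above each NC library, and VAMP8 rose with a log2 fold change of 0.36 ± 0.08 (adjusted p = 0.000254, edgeR), or 28.6%, and kept its call in all 14 alternative settings. Its partners on the autophagosome gave other values. STX17, the SNARE recruited to closed autophagosomes, had 40.4, 38.9 and 38.5 CPM in NC against 37.7, 42.3 and 40.01 CPM in si-GLMP and SNAP29 had 26.3, 30.7 and 27.4 CPM in NC against 28.6, 28.2 and 28.4 CPM in si-GLMP. Both overlapped between groups, with log2 fold changes of 0.03 (95% interval -0.14 to 0.19; adjusted p = 0.853, edgeR) and 0.01 (95% interval -0.16 to 0.19; adjusted p = 0.933, edgeR). The tether gene EPG5 had 0.18 (adjusted p = 0.115, edgeR) and TECPR1 had 0.29 (adjusted p = 0.116, edgeR), both without overlap between groups. EPG5 passed after removal of the GC and length trend (adjusted p = 0.00828 by edgeR), and TECPR1 passed after removal of the GC and length trend (adjusted p = 0.0417 by edgeR). The adaptor gene PLEKHM1 had 0.03 (adjusted p = 0.847, edgeR). SNAP29 shares 12.1% of its exonic length with opposite-strand genes, among them PI4KA at a mean of 106 CPM in NC. Per exonic length VAMP8 was the highest of the 44 members in NC, at 158 ± 6.58 TPM, ahead of WDR45B at 142 ± 5.94 TPM and NRBF2 at 68.6 ± 3.12 TPM (SD, n = 3). This order depends on the annotated length, 990 bases for VAMP8. By mean CPM in NC, VAMP8 (45.7) lay below WDR45B (147).

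A list of 35 other autophagy genes outside the core showed changes in both directions at the background rate. Of 33 tested, 3 rose, 5 fell and 25 did not pass, together 24.2% against 23.3% of all tested genes, with a median of -0.02. ATG9B, the relative of ATG9A, had 2.91, 2.35 and 2.80 CPM in NC against 5.18, 4.01 and 6.30 CPM in si-GLMP, with every si-GLMP library above every NC library, and rose by 0.94 (adjusted p = 0.000126, edgeR) on the log2 scale. C9orf72, part of a complex that binds the ULK1 machinery, rose by 0.49 (adjusted p = 0.00408, edgeR), and YKT6, a SNARE that can act beside STX17 in fusion, by 0.21 (adjusted p = 0.0108, edgeR). STX7, the SNARE on the lysosome that pairs with YKT6 and SNAP29, had 32.1, 32.1 and 32.3 CPM in NC against 26.7, 26.4 and 26.8 CPM in si-GLMP. The values within each group were close together, and STX7 fell, with a log2 fold change of -0.27 (adjusted p = 0.0174, edgeR). FYCO1, which links autophagosomes to kinesin, fell too, with -0.36 (adjusted p = 0.00153, edgeR), as did SNX18, a membrane-bending protein, with -0.27 (adjusted p = 0.0144, edgeR), USP13, a deubiquitinase of Beclin 1, with -0.73 (adjusted p = 0.00574, edgeR), and EI24, an endoplasmic reticulum protein, with -0.20 (adjusted p = 0.0324, edgeR). The subunit genes of the HOPS tether (VPS11, VPS16, VPS18, VPS33A, VPS39 and VPS41) did not pass. The EI24 call was lost when NC replicate 1 (adjusted p = 0.0671 by edgeR), NC replicate 2 (0.246) or si-GLMP replicate 3 (0.186) was left out and with no filter on low counts (0.0674). The STX7 call was lost when NC replicate 1 (adjusted p = 0.0705 by edgeR), NC replicate 3 (0.0704) or si-GLMP replicate 3 (0.06) was left out, and the SNX18 call when NC replicate 1 (adjusted p = 0.142 by edgeR), NC replicate 3 (0.0508) or si-GLMP replicate 1 (0.0551) was left out. YKT6 lost its call when NC replicate 2 (adjusted p = 0.0526 by edgeR) was left out and C9orf72 when si-GLMP replicate 2 (adjusted p = 0.111 by edgeR) was left out.

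How many members passed depended on single libraries and on 1 added correction. Without NC replicate 3 the counts went from 11 higher and 3 lower to 6 higher and 1 lower, and without NC replicate 1 to 7 higher and 2 lower. Calls over all tested genes fell too, from 1910 higher and 1802 lower to 1577 and 1435 without NC replicate 3 and to 1482 and 1322 without NC replicate 1. Without NC replicate 2, the library with the highest mitochondrial share, 8 were higher and 4 lower (1593 and 1459 over all genes), and without si-GLMP replicate 3, 11 were higher and 1 lower (1547 and 1283). RLE and upper-quartile scaling, DESeq2 and limma-voom gave 11 or 12 higher and 3 lower. With a trend on GC content and transcript length removed from each library, a setting chosen after seeing the data, 17 members were higher and 5 lower, and over all genes the counts also rose, to 2198 and 2097. AMBRA1, ATG5, ATG7 and VAMP8, 4 of the 11 higher members, were called in all 14 alternatives, as were 0 of the 3 lower members. Of the 42 tested members, 0 had opposite signs in the reported fit and an alternative with a call in either. A lost call need not mean a smaller change, since a fit without 1 library has less data. In the fits that lost its call STX7 had log2 fold changes of -0.268, -0.264 and -0.267, against -0.270 as reported. NRBF2 had 0.246 without NC replicate 1, against 0.230. Other changes shrank, as for VMP1 without si-GLMP replicate 2 (0.145 against 0.212) and UVRAG without NC replicate 3 (-0.226 against -0.300).

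**Figure D5:**
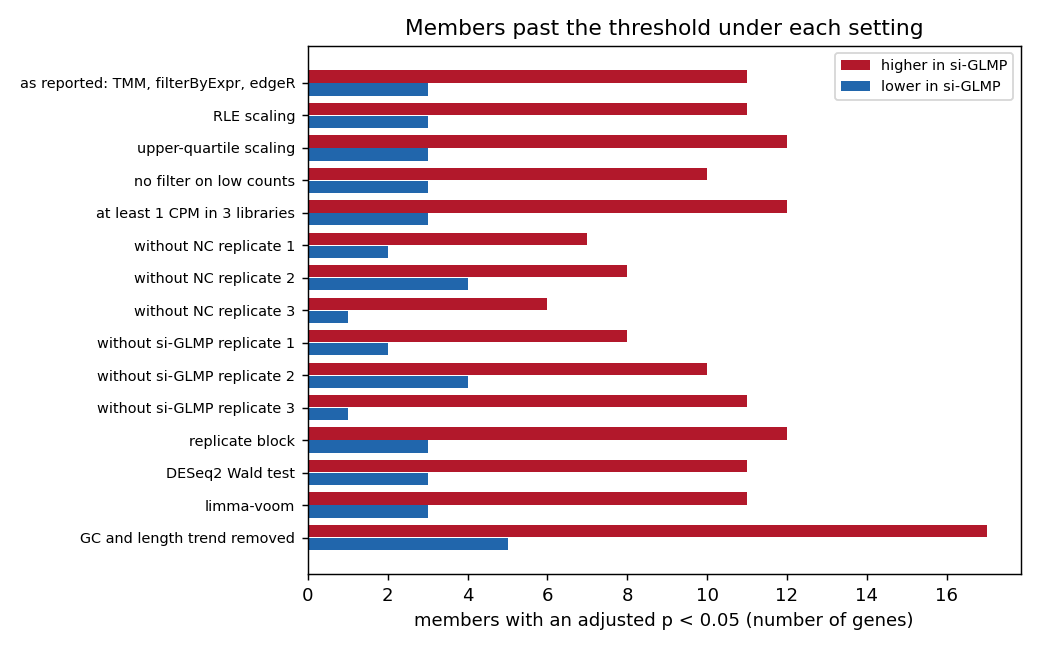
Number of members with an adjusted p under 0.05 (x axis) under the reported setting and each of 14 alternatives (y axis), red for higher and blue for lower in si-GLMP. The lowest count of higher members is 6, without NC replicate 3, and the highest is 17, with the GC and length trend removed.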

How the data were processed

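RNA of PC9OR cells was sequenced in 6 libraries, 3 NC and 3 si-GLMP, made as Illumina mRNA libraries after Trizol extraction, per the labels' protocols. The authors deposited read counts per gene, whole numbers without normalization, on which every value here rests. The submitters' processing notes list HISAT2, without a version, and the build GRCh38. Which counter, annotation and strand option were used is not given in the sources used here. All 6 count columns matched a sample by title.

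Counts were fitted with edgeR 4.0.16 (R 4.3.3): filterByExpr with a minimum count of 10 left 15900 genes, TMM factors lay between 0.9639 and 1.018, and robust quasi-likelihood F tests compared the groups with Benjamini-Hochberg adjustment over all tested genes and a threshold of 0.05. Standard errors are the fold change over the square root of F, and 95% intervals use the total degrees of freedom of each gene's test and are not adjusted. CPM are TMM-scaled. Levels per length are TPM over 58396 genes with union exon lengths in GENCODE 29 (GRCh38). The fits were tested on simulated data. Alternatives were RLE and upper-quartile scaling, 2 filters, each library left out, a replicate block, DESeq2 1.42.0, limma-voom (limma 3.58.1) and, added after the data were seen, removal of a GC and length trend (99.06% of tested genes had both values).

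The members, the step groups, the list of other autophagy genes and the tests were chosen with earlier results of these data known. Values in each library are given for members past the threshold, every ATG8 member and ULK1, BECN1, ATG9A, ATG7 and STX17. Outside that rule they are also given for GLMP and for ATG4A, SNAP29, ATG9B and STX7. Other genes named are those past the threshold in the list of other autophagy genes, markers, overlapping genes and genes whose groups or partners are described.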

Additional observations from a re-analysis of the deposited data

How the results depend on the processing

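Gene by gene, comparisons with the reported result cover the tested members and the called genes of the list of other autophagy genes. The latter, picked as called, could not gain a call. Over all alternatives but the GC and length trend, 602 comparisons kept their side of the threshold, small sign changes of uncalled genes among them. Another 39 lost the call, 9 gained it and 0 called results reversed. With the GC and length trend removed 42 were the same and 8 gained the call. Leaving out 1 library at a time gave 6 to 11 higher and 1 to 4 lower members, against 11 and 3 with all libraries. With the GC and length trend removed, 17 members were higher and 5 lower, and 2198 and 2097 of all genes; the cause was not tested. The other settings gave 10 to 12 higher and 3 lower members. GLMP stayed lower in every alternative, with log2 fold changes from -2.40 to -2.15. The labels do not say whether libraries with the same replicate number share a culture or day, and this was not tested. Deviations of same-numbered libraries from their group means correlated weakly across genes, at 0.0388, 0.0263 and 0.00128 for replicates 1, 2 and 3. The values for replicates 1 and 2 were the highest of any pair, while NC replicate 3 correlated best with si-GLMP replicate 2. On axis 2 of a principal component analysis, replicate 1 lay highest and replicate 2 lowest in both groups (13.55 and -20.84 in NC, 12.31 and -15.35 in si-GLMP). With the replicate number as a block, 12 members were higher and 3 lower, and 2052 genes higher and 1920 lower over all genes, against 1910 and 1802. The block changed no member's call other than that of ATG4A, which passed. The biological coefficient of variation was 6.91%. MAP1LC3A and GABARAP had too few reads to be tested, and the cause of the low GABARAP count was not tested.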
